A study of Mus musculus with 5 samples.

Results

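The angiopoietin and VEGF ligands and receptors were followed in MLE-15 cells with and without an shRNA against Grhl2. The 9 genes were the angiopoietin receptor Tek, its relative Tie1, the VEGF receptors Kdr and Flt1, and the ligands Angpt1, Angpt2, Vegfa, Vegfb and Vegfc. They are 9 of the 19937 genes that the platform annotation names on a probe set of their own. Members were taken by symbol, and each had 1 such probe set. The family was chosen by the Tek difference between the groups of these same arrays, which was already known to be among the largest rises. The Tek values are therefore described and not tested.

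The angiopoietins bind Tek, also called Tie2, a receptor tyrosine kinase best known from endothelial cells. Angpt1 activates the receptor and stabilises vessels, Angpt2 acts as a context-dependent agonist or antagonist, and Tie1 binds no angiopoietin with high affinity but modulates Tek signalling. VEGF ligands act through Flt1, Kdr and Flt4 to drive vessel growth and permeability. In the lung, alveolar epithelium is a main source of Vegfa for the capillaries beneath it.

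MLE-15 cells are a murine lung epithelial line. It was established from tumours that arose in transgenic mice carrying the SV40 large tumor antigen under the human SP-C promoter, and both groups share this origin. Cells were transduced with a GFP-marked lentivirus encoding 1 hairpin against Grhl2, a transcription factor of epithelia, or a hairpin with no target. Exposure to virus took 16 h, and both groups were selected with puromycin for 6 days. There were 3 Grhl2 shRNA arrays and 2 non-silencing control arrays, each from an independent transduction of the same line, so the spread is that between transductions and not between animals. The series asks which genes depend on Grhl2 in lung epithelium.

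Values are log2 expression after RMA, on which a difference of 1 is a doubling. The signal of a probe set also depends on its probes, so signals of different genes given side by side do not rank their expression. Median signal per array lay between 5.29 and 5.32. The targeted gene, Grhl2, read 7.43, 7.43 and 7.60 with its shRNA against 7.77 and 7.68 in the control, a difference of −0.24 (limma adjusted p = 0.082), or 85.0% of the control signal. The exact two-sided permutation p was 0.2, where the smallest possible is 0.1. Its transcript was thus lower on every shRNA array, but the difference did not pass the threshold of an adjusted p under 0.05. Among 12 lung epithelial markers, Krt18, Krt8, Sftpb, Cdh1, Epcam and Nkx2-1 had mean signals of 10.00 to 12.13, while Sftpc was at 6.83, Cldn18 at 4.49 and Lamp3 at 3.32. In bulk RNA, a change in the number of cells that express a gene and a change in RNA per cell cannot be told apart.

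Tek was the member that stood apart. On its probe set 10505954 it read 7.27, 7.49 and 7.60 on the shRNA arrays and 6.63 and 6.45 on the control arrays. All 3 shRNA values lay above both control values, and a gap of 0.64 separated the lowest shRNA array from the highest control array. The mean went from 6.54 ± 0.12 (SD, n = 2) to 7.45 ± 0.17 (SD, n = 3). The difference of 0.91 is 1.88-fold and was the 8th largest positive difference among the 14979 genes past the filter. The family was chosen by this rise, so the rank and the gap restate that choice. Whichever array was left out, the difference lay between 0.82 and 1.00. With a gap of 0.64 between the groups, leaving out 1 array could not have changed its direction. Both control values were above 4.22, the filter on low signal, which is a percentile of probe set signal and not a limit of detection.

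**Figure D1:**
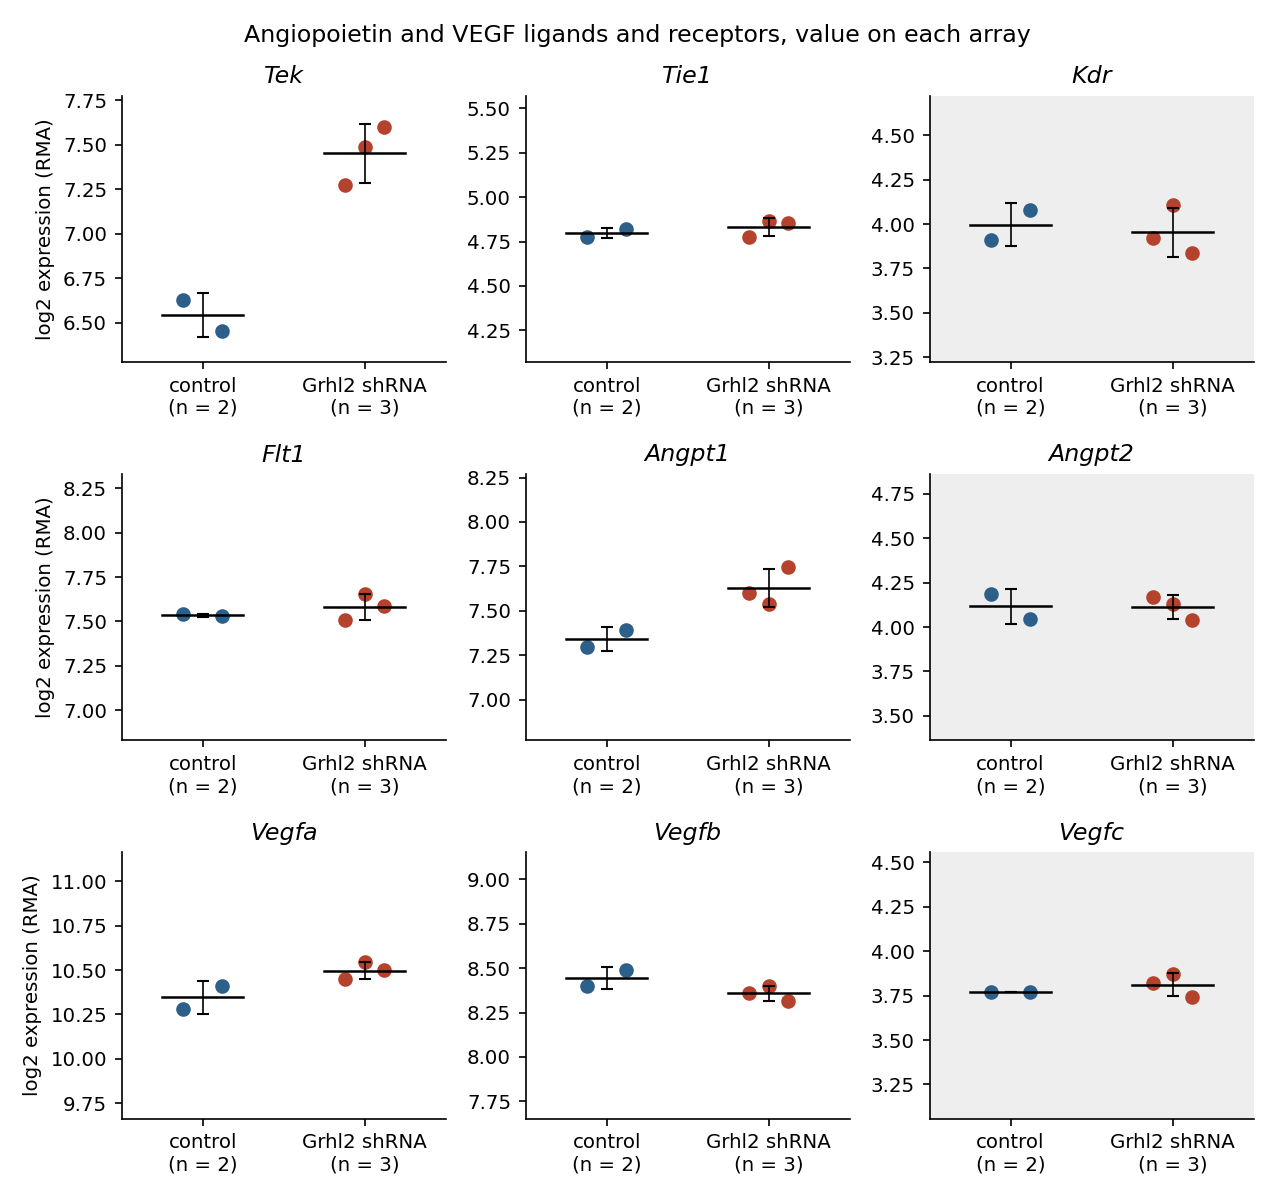
Log2 expression of the 9 members on each array, with control arrays in blue (n = 2) and Grhl2 shRNA arrays in red (n = 3); bars are means with SD, every panel spans the same log2 range, and grey panels are the 3 genes below the filter on low signal. Tek is separated by 0.64 between the groups, Angpt1 by 0.15 and Vegfa by 0.04, whereas Tie1, Kdr, Flt1, Angpt2 and Vegfc overlap.

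The other receptors gave much smaller differences. Tie1 (10515771) read 4.77, 4.87 and 4.85 on the shRNA arrays and 4.78 and 4.82 on the control arrays, with overlap between groups, and the difference was 0.03 (95% interval −0.08 to 0.14, limma adjusted p = 0.72). Flt1 (10535807), the receptor for Vegfa and Vegfb that also exists as a soluble decoy, read 7.51, 7.65 and 7.59 against 7.54 and 7.53. These values overlapped as well, and the difference was 0.05 (95% interval −0.08 to 0.17, limma adjusted p = 0.65). Kdr (10530692), the main signalling receptor for Vegfa, read 3.92, 4.11 and 3.84 against 3.91 and 4.08. It lay below the filter on every array and was not tested. Its mean difference was −0.04, with overlapping groups.

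Because Tek and Vegfa are the receptor and ligand with the largest differences that have a RefSeq promoter window, the 250 bases before their start sites are shown with those of Tie1, the paralog of Tek. The sequences are from RefSeq (GRCm38.p6), 5′ to 3′ on the strand of the gene, and 7 of the 9 members matched the table. The Tek window is chr4:94739039-94739288 on the plus strand, and the start site used lies inside the annotated span of the gene. The Tie1 window is chr4:118489850-118490099 and the Vegfa window chr17:46032378-46032627, both on the minus strand. Capitals mark GGAA on either strand (TTCC), the core of ETS factor sites, and ACCGGT, the inner part of AACCGGTT, the Grainyhead consensus.
Tek: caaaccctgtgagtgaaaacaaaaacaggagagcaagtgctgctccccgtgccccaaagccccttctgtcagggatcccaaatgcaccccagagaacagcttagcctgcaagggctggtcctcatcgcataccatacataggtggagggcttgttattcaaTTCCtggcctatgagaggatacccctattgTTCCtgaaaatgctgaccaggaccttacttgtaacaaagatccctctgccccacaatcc
Tie1: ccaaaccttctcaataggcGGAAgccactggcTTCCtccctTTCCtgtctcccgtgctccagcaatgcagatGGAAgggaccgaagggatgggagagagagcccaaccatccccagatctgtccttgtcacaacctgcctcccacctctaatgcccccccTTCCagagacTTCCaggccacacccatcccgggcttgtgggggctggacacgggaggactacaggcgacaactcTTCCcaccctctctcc
Vegfa: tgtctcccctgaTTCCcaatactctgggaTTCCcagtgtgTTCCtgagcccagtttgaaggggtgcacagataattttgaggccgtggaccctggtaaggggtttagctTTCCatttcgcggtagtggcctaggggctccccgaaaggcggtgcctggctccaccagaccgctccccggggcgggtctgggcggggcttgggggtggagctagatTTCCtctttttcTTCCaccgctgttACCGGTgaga

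The Tek window held 2 GGAA matches and the Tie1 window 7, and 93.4% of 32851 RefSeq windows of the same length hold at least 1. Neither window held ACCGGT. The Vegfa window held 6 GGAA matches and 1 ACCGGT, which starts 10 bases before the start site, and 1.86% of all windows hold ACCGGT. None of the members' windows held the full AACCGGTT, found in 0.116% of windows. ACGTG, a form of the hypoxia response core, was searched on both strands and is present in 16.6% of windows. Among the members with a window, it occurred only at a downstream start site of Vegfa. Other forms of that core were not searched. ACCGGT lies within AACCGGTT, and the other motifs share no match with it in these windows. These matches describe letters in the windows and were not tested for binding.

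Among the ligands, Angpt1 and Vegfa had higher means in the shRNA group. Angpt1 (10428376), the activating ligand of Tek, read 7.60, 7.54 and 7.74 on the shRNA arrays and 7.30 and 7.39 on the control arrays. A gap of 0.15 separated the groups, which did not overlap. The mean went from 7.34 ± 0.07 (SD, n = 2) to 7.63 ± 0.11 (SD, n = 3), a difference of 0.28 (SE 0.068, 95% interval 0.12 to 0.45) or 1.22-fold. With limma's adjusted p = 0.058 it missed the threshold, and 96.1% of genes tested had a smaller absolute difference. It stood near the threshold: over the alternatives the adjusted p ran from 0.011 to 0.25, and it passed with arrays centred on their median (adjusted p = 0.048) and with quantile normalization repeated (adjusted p = 0.048). With any 1 array left out it did not pass (adjusted p = 0.080 to 0.25).

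Vegfa (10451198) read 10.45, 10.54 and 10.50 on the shRNA arrays and 10.28 and 10.41 on the control arrays. Its lowest shRNA value lay only 0.04 above the highest control value. The difference was 0.15 (SE 0.055, 95% interval 0.02 to 0.28), with a limma adjusted p of 0.16. Leaving out control replicate 1 gave 0.08 and leaving out control replicate 2 gave 0.21, and Vegfa passed only with a trended robust variance prior (adjusted p = 0.034; over the alternatives 0.034 to 0.55). Vegfb (10465559), a ligand of Flt1 but not of Kdr, went the other way. Its values were 8.36, 8.40 and 8.32 on the shRNA arrays and 8.40 and 8.49 on the control arrays, so that the groups were separated by 0.002. The difference was −0.09 (95% interval −0.20 to 0.03, limma adjusted p = 0.34).

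The remaining ligands were below the filter on every array. Angpt2 (10577315) read 4.17, 4.13 and 4.04 against 4.18 and 4.05. Vegfc (10571788), the lymphatic ligand of Flt4, read 3.82, 3.87 and 3.74 against 3.77 and 3.77. Both groups overlapped for each gene, and the mean differences were −0.003 and 0.04. Angpt2 changed sign with arrays centred on their median (0.006). Array values of Kdr, Angpt2 and Vegfc together ran from 3.74 to 4.18, under the filter of 4.22.

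Of the 5 members other than Tek that were tested, 0 passed the threshold with limma, and 2 (Angpt1 and Vegfa) had an unadjusted p under 0.05. Across all genes, 6.38% passed, 2.86% higher and 3.52% lower, and 23.1% had an unadjusted p under 0.05. The groups did not overlap in 3 of the 5, 2 with the shRNA group higher and 1 with it lower, against 41.5% of all genes tested (21% with the shRNA group higher and 20.5% with it lower). In the plot of all differences, Tek, chosen for its rise, lay in the sparse right tail. The other members lay within the bulk or on its shoulder.

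**Figure D2:**
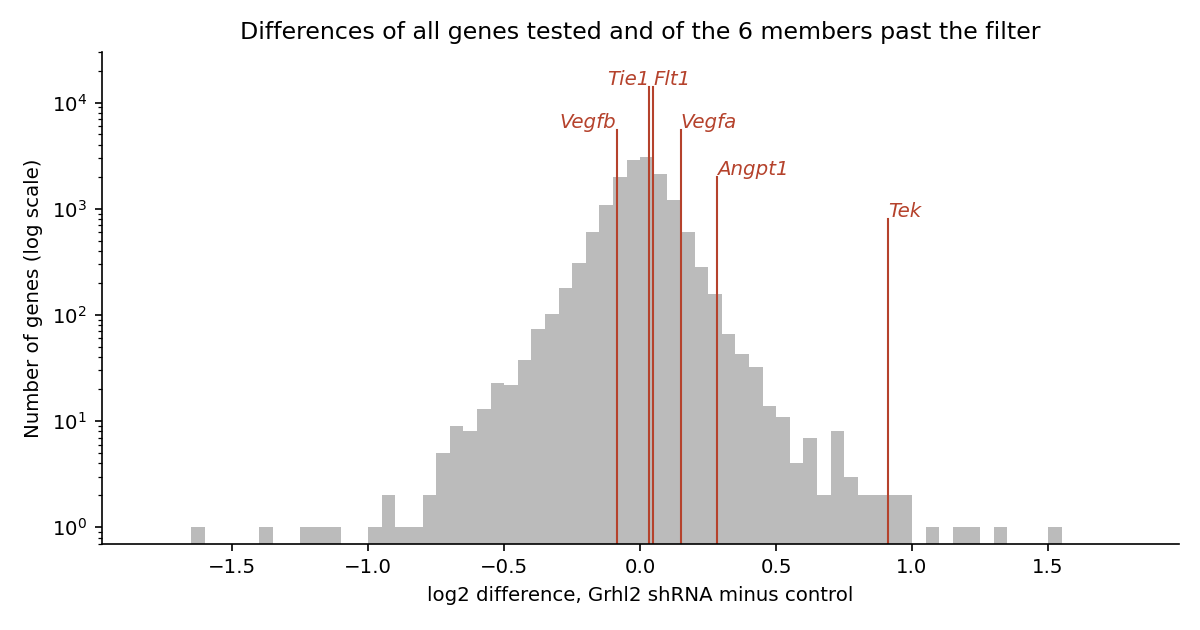
Histogram of log2 differences (Grhl2 shRNA minus control) of the 14979 genes tested, with the number of genes on a log axis; red lines mark the 6 members past the filter on low signal. Tek is at 0.91, Angpt1 at 0.28, Vegfa at 0.15, Flt1 at 0.05, Tie1 at 0.03 and Vegfb at −0.09.

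Of the family's co-receptors, Nrp1 was higher and Nrp2 lower in the shRNA group. Of the 10 further family genes that entered the test, 1 rose, 1 fell and 8 did not pass, where 6.38% of all genes passed. This list and those below were chosen with earlier results of these data known, so their counts are no independent test. Of the 10, 3 had an unadjusted limma p under 0.05 (23.1% over all genes). The median difference was −0.04 against 0.002 for all genes. Nrp1 (10576639), a co-receptor for Vegfa and for semaphorins, read 8.53, 8.42 and 8.40 on the shRNA arrays and 8.05 and 8.22 on the control arrays, and rose by 0.32 (SE 0.066, limma adjusted p = 0.039). Nrp2 (10346843), the neuropilin that also binds Vegfc, read 7.71, 7.79 and 7.80 against 8.02 and 8.07, and fell by 0.28 (SE 0.047, limma adjusted p = 0.022). The groups did not overlap for either neuropilin. Nrp1 lost its call with any array left out, and Nrp2 kept it only without shRNA replicate 3. Differences were −0.05 for Flt4, the receptor of Vegfc, −0.04 for Pgf, placental growth factor, and 0.02 for Ptprb, the phosphatase that dephosphorylates Tek, and none of these passed.

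The list of receptor signalling had 40 tested genes. With limma 0 rose, 2 fell and 38 did not pass, where 6.38% of all genes tested passed. Of the 40, 6 had an unadjusted p under 0.05 (23.1% over all genes), and the median difference was −0.01. Both genes that fell encode proteins known to bind activated Tek, but the list was made up of genes that act in receptor signalling. Pik3r1 (10411782), the regulatory subunit of PI 3-kinase, read 8.995, 9.037 and 9.083 on the shRNA arrays and 9.348 and 9.482 on the control arrays, and fell by 0.38 (SE 0.055, limma adjusted p = 0.015). Grb14 (10483163), an adaptor protein, read 5.30, 5.32 and 5.24 against 5.74 and 5.52, and fell by 0.34 (SE 0.068, limma adjusted p = 0.035). Control replicate 1 was the higher control for Grb14 and the lower one for Pik3r1. Pik3r1 lost its call without shRNA replicate 2 or either control, and Grb14 with any array left out. Among the genes that did not pass, the kinase gene Map2k1 differed by 0.21 (limma adjusted p = 0.11) and the sphingosine kinase gene Sphk1 by −0.19 (limma adjusted p = 0.082). Grb7 differed by 0.02, Dok2 by −0.01, Ptpn11 by 0.02, Plcg1 by −0.02 and Foxo1 by −0.03.

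Of 28 genes that control the ligands, 1 rose, 2 fell and 25 did not pass, where 6.38% of all genes tested passed. Of the 28, 7 had an unadjusted limma p under 0.05 (23.1% over all genes), and the median difference was −0.02. Thbs1 (10474700), the anti-angiogenic matrix protein thrombospondin-1, read 5.85, 5.72 and 5.99 on the shRNA arrays and 6.56 and 6.39 on the control arrays. It fell by 0.62 (SE 0.086, limma adjusted p = 0.013), 1.54-fold lower, and lost its call without either control. Egln3 (10400304), a prolyl hydroxylase that marks HIF proteins for degradation and is itself a HIF target, read 6.19, 6.24 and 6.35 against 6.65 and 7.06. It fell by 0.59 (SE 0.11, limma adjusted p = 0.032). Without control replicate 2, the higher of the pair, the difference was −0.39 and did not pass, and with 1 array left out the call held only without control replicate 1.

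Adamts3, the protease that processes the Vegfc precursor, was the ligand-control gene that rose. Its brightest probe set (10531193) read 7.49, 7.42 and 7.64 on the shRNA arrays and 7.23 and 7.05 on the control arrays, a rise of 0.38 (SE 0.081, limma adjusted p = 0.043) that lost its call with any array left out. All 16 Adamts3 probe sets had differences above 0, from 0.08 to 0.53. Hif1a (10396421), the hypoxia-inducible factor subunit that drives Vegfa, read 11.16, 11.22 and 11.16 against 11.00 and 11.00, a difference of 0.18 (limma adjusted p = 0.051). The groups of Hif1a did not overlap, but it missed the threshold. Epas1, Arnt and Vhl, further parts of the hypoxia response, differed by 0.04, −0.02 and −0.04 and did not pass.

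**Figure D3:**
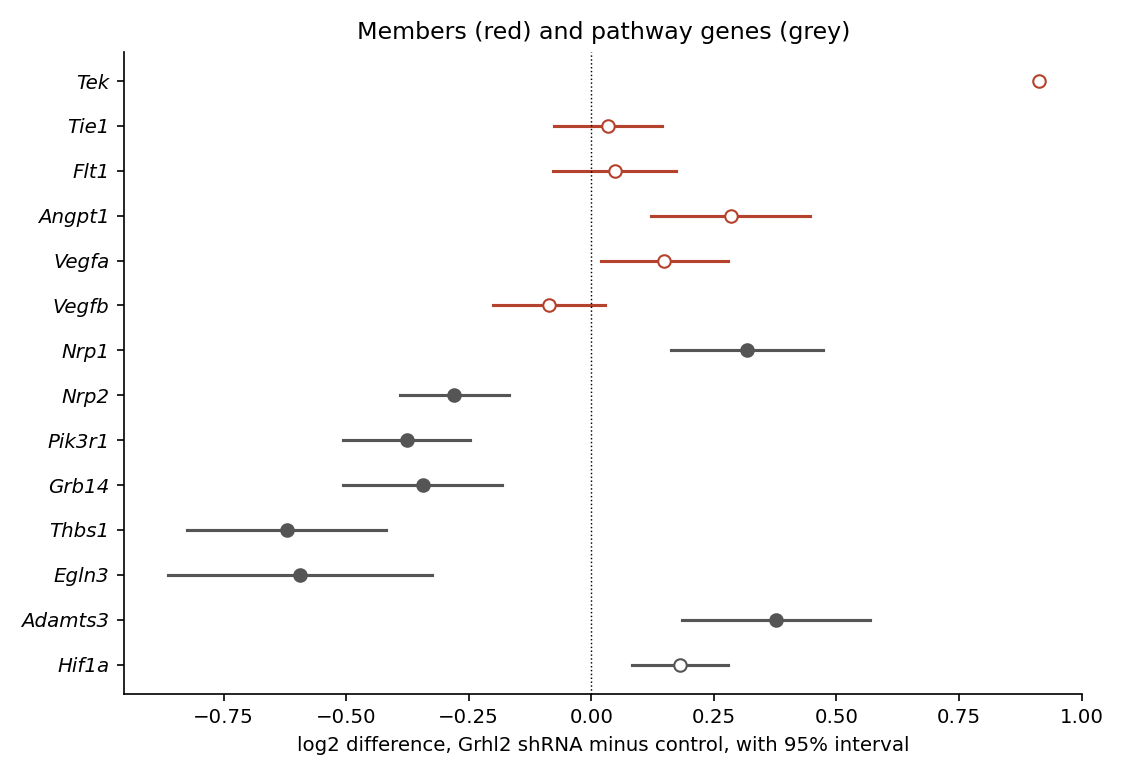
Log2 difference (Grhl2 shRNA minus control) for the 6 members past the filter (red) and for 8 pathway genes (grey), with 95% intervals; filled points passed the adjusted threshold, open points did not, and Tek is open and has no interval because it was not tested. Nrp1 and Adamts3 lie above 0, Nrp2, Pik3r1, Grb14, Thbs1 and Egln3 below 0.

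No endothelial marker passed the test, which 6.38% of all genes tested passed. Of 21 with a probe set, 17 were tested with limma, of which 0 rose and 0 fell, and 3 had an unadjusted p under 0.05 (23.1% over all genes). Their mean log2 signal over all 21 ranged from 4.85 to 4.91 on the shRNA arrays and from 4.91 to 4.92 on the control arrays. Pecam1, Cdh5 and Emcn, which define endothelium, had mean signals of 4.28, 4.63 and 3.34, and Egfl7 and Vwf had 7.79 and 6.81. The largest differences among those tested were 0.16 for Erg and 0.15 for Mmrn2 (limma adjusted p = 0.29 and 0.14). Differences were above 0 for 6 of the 17 and below 0 for 11, with a median of −0.03.

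Of 8 mural cell markers tested with limma, 0 rose and 0 fell, where 6.38% of all genes tested passed. Of the 8, 1 had an unadjusted p under 0.05 (23.1% over all genes). The largest differences were −0.15 for Acta2 and 0.13 for Kcnj8 (limma adjusted p = 0.10 and 0.35). Their mean signal was 5.11 to 5.16 on the shRNA arrays and 5.15 to 5.17 on the control arrays. Of 12 haematopoietic markers, 7 were tested, of which Tyrobp, a myeloid adaptor, rose by 0.28 (limma adjusted p = 0.020) and 6 did not pass, among them Lyz2 at 0.17 (limma adjusted p = 0.093). With 1 array left out, Tyrobp passed only without shRNA replicate 3. Of the 7, 3 (Tyrobp, Lyz2 and Fcer1g) had an unadjusted limma p under 0.05 (23.1% over all genes), all with the shRNA group higher. Fcer1g differed by 0.16 (limma adjusted p = 0.074). Differences were above 0 for 4 of the 7 and below 0 for 3. Cd79a, a B cell gene below the filter, was at −0.31. The mean signal of the 12 was 4.41 to 4.44 on the shRNA arrays and 4.38 to 4.40 on the control arrays. The defining gene Ptprc was at 4.21, below the filter, with a difference of 0.009. The part of these small shifts in the Tek values was not tested. Of 11 lung epithelial markers tested, Sftpd fell by 0.33 (limma adjusted p = 0.021) and 10 did not pass, among them Sftpc at −0.25 (limma adjusted p = 0.63), which was at 0.04 without shRNA replicate 1. Sftpd lost its call without shRNA replicate 2 or either control.

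**Figure D4:**
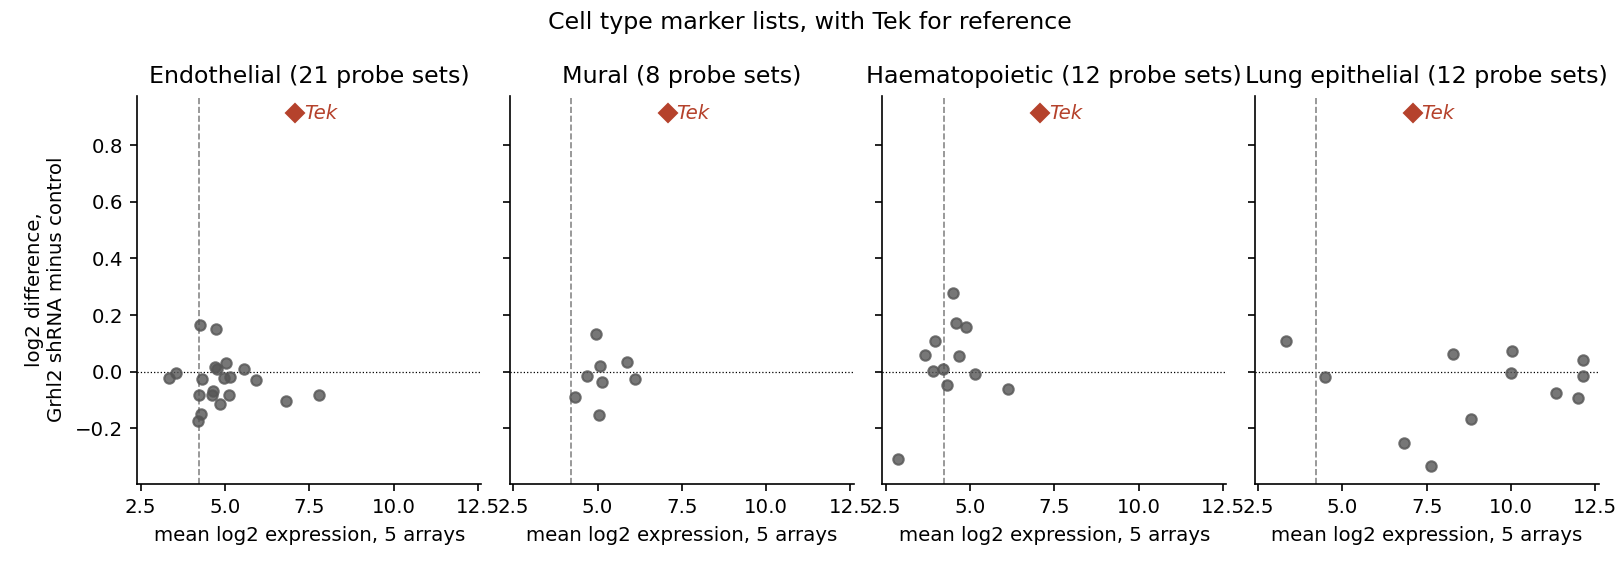
Mean log2 expression over the 5 arrays (horizontal) against the log2 difference, Grhl2 shRNA minus control (vertical), for every probe set of 4 marker lists, with Tek as a red diamond; the dashed line is the filter of 4.22. The highest marker point is Tyrobp at 0.28, under Tek at 0.91.

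The genes whose pattern over the 5 arrays lay nearest to Tek were found by the root mean square difference of values centred on each gene's own mean. Galntl5, of the polypeptide GalNAc-transferase family, was nearest at 0.043 log2 units, followed by the T cell co-stimulatory ligand Cd80 at 0.094 and coagulation factor V, F5, at 0.106. Mcpt8, of the family named mast cell proteases, and the haematopoietic prostaglandin D synthase Hpgds came next, at 0.108 and 0.110. Neither was on the list of haematopoietic markers. Differences between the groups were 0.95, 0.86, 0.76, 0.89 and 0.71 in that order. With 5 arrays in 2 groups, nearness mostly follows the size of the group difference.

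The genes beside Tek on the chromosome gave smaller differences, and none passed the test. Ift74, an intraflagellar transport gene, read 7.35, 7.39 and 7.53 on the shRNA arrays and 7.34 and 7.36 on the control arrays (difference 0.07, limma adjusted p = 0.53). Mysm1, a histone deubiquitinase, read 7.99, 8.06 and 8.05 against 7.90 and 7.91 (difference 0.13, limma adjusted p = 0.14). Lrrc19 and Eqtn, the immediate neighbours in the RefSeq gene order, had mean signals of 3.47 and 2.86 and were below the filter. Lrrc19 read higher on all 3 shRNA arrays, and Eqtn lower on all 3.

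**Figure D5:**
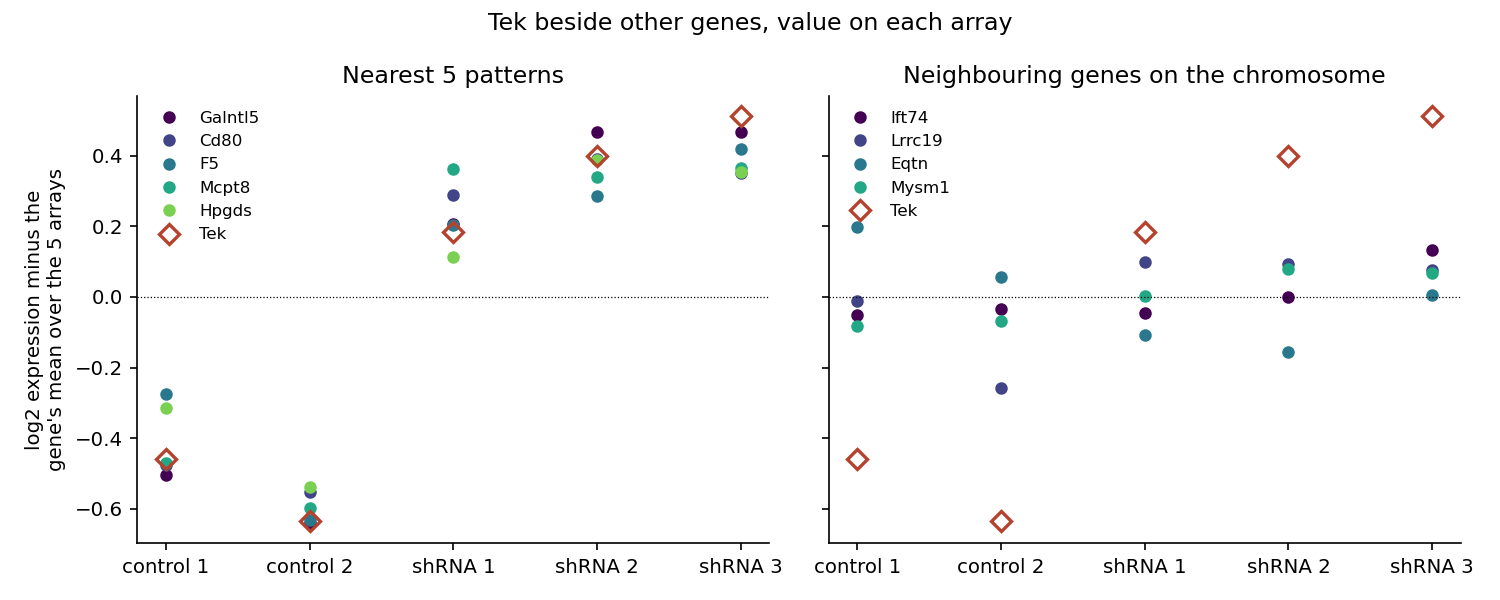
Log2 expression on each array minus the gene's mean over the 5 arrays, for the 5 genes nearest to Tek in pattern (left) and the 4 neighbouring protein-coding genes (right), with Tek as red diamonds in both. The nearest 5 are below 0 on both control arrays and above 0 on all shRNA arrays, a pattern they were selected for. Each neighbour lies nearer to 0 than Tek on every array.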

How the data were processed

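The authors deposited a table of log2 expression values for 34760 probe sets. The submitters' processing notes name RMA and Affymetrix Expression Console, and RMA corrects background, normalizes arrays by quantiles and combines the probes of a set. For software versions, probe set annotation and filters, the sources used here give no entry. That values are log2 follows from RMA and their range. Symbols came from the platform annotation: 21640 probe sets had 1 symbol, 1321 several and 11799 none, and 21553 of the first were matched by Entrez ID to RefSeq (GRCm38.p6).

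Single-symbol probe sets with a mean below 4.22, the 25th percentile, were left out. The brightest probe set stood for a gene, giving 14979 genes, tested with limma 3.58.1 (lmFit, eBayes, two-sided) in R 4.3.3 with Benjamini-Hochberg adjustment over all of them. The number of arrays, with 3 residual degrees of freedom, limits the precision. The fit was tested on simulated data. Members and lists were chosen with earlier results of these data known. All members were named, and from each list the called genes up to 6, or the 2 largest differences where fewer than 2 were called. Grhl2, the 5 genes nearest to Tek in pattern and its 4 neighbours were named too. Hif1a, Map2k1, Sphk1, Cd79a, Fcer1g, Flt4, Pgf, Ptprb, Grb7, Dok2, Ptpn11, Plcg1, Foxo1, Epas1, Arnt, Vhl and the marker genes given only by their signal were chosen for their roles after values were seen. Alternatives covered the filter, normalization, probe set choice, variance prior, array weights, replicate block, threshold and each array left out.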

Additional observations from a re-analysis of the deposited data

How the results depend on the processing

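Of 95 recomputed differences with a test (5 members and Grhl2), 85 kept their side of the threshold and 10 came to pass it. The 40 differences of Tek, Kdr, Angpt2 and Vegfc, described without a test, moved by less than 1 SD. None of the tested members changed direction, but the untested Kdr and Angpt2 changed sign with single arrays left out (−0.13 to 0.04 and −0.07 to 0.07). Angpt1 passed under a 50th percentile filter (0.28, adjusted p = 0.020), with arrays centred (0.29), with quantile normalization repeated (0.29), with the trended robust prior (0.28, adjusted p = 0.011) and at a threshold of 0.1. Vegfa passed with the trended robust prior (0.15). Grhl2 (−0.24) passed with the filter at the 50th percentile, the trended robust prior and the threshold of 0.1, and without shRNA replicate 3 (−0.29; with any array left out −0.29 to −0.19). The count of members passing, 0 in the reported fit and with any array left out, was 1 under the 50th percentile filter, both normalizations and the threshold of 0.1, and 2 under the trended robust prior. Genes passing in the other lists numbered 9, against 5 with no filter, 15 with the trended robust prior, 0 with no moderation, 15 at 0.1, and 0 to 5 with an array left out. Over all genes 956 passed (429 higher, 527 lower), against 418 with no filter, 1708 with the 50th percentile filter, 2034 with the trended robust prior, 9 with no moderation, 1851 at 0.1, and 67 to 493 with an array left out, where fewer arrays entered the fit. Same-numbered arrays deviated together at correlations of 0.057 and 0.019 only, so the numbers were not taken as pairs. With the replicate block, in which shRNA replicate 3 has no partner, 172 genes, 1 gene of the other lists and 0 members passed. The cause of the other shifts was not tested.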
